A study of Mus musculus with 6 samples.

Results

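The 4 genes of the doublecortin family (Dcx, Dclk1, Dclk2 and Dclk3) and 6 genes that mark the steps by which new neurons arise in the adult dentate gyrus (Mki67, Eomes, Igfbpl1, Sox11, Neurod1 and Calb2) were examined in the mouse hippocampus. These 10 genes were chosen by symbol as the doublecortin family and markers of newborn dentate neurons, with earlier results of these data known, and all 10 were found among the 54838 genes counted. RNA was sequenced from 1 hippocampus sample of each of 6 females aged 7 months, of which 3 were wild-type and 3 were FVB/NJ-Tg(Orai1)Ibd. The transgenic mice carry a human ORAI1 cDNA in the Thy1.2 cassette, which is active in neurons, so that the calcium channel ORAI1 is overexpressed in neurons of 1 transgenic line on the FVB/NJ background, and the labels give no other allele or treatment for either genotype. The comparison asks how these genes differ between the hippocampi of the 2 genotypes.

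Doublecortin binds microtubules and stabilizes them in neurons that migrate and extend their first processes. Dclk1 and Dclk2 join doublecortin domains to a serine/threonine kinase domain, and Dclk3 is a kinase of the same family. In the adult dentate gyrus, stem cells give rise to dividing intermediate progenitors that carry Eomes, and these become immature neurons with doublecortin, of which only a part survives as granule cells. The number of such newborn neurons declines with age in mice. In a whole hippocampus, a smaller number of cells of a type and less RNA in each such cell cannot be told apart.

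The libraries held 37414241 to 52497799 counts on genes, and counts of the 10 genes ran from 17 for Eomes in wild-type 3 to 34055 for Dclk1 in wild-type 1. Orai1, the gene of the transgene's mouse counterpart, checked the labels, with a mean of 7.47 CPM ± 0.527 (SD, n = 3) in the wild-type and 320 CPM ± 9.53 (SD, n = 3) in the transgenic hippocampi. CPM are counts relative to the library total after TMM scaling. Values of single mice are given below in the order wild-type 1, 2 and 3, then transgenic 1, 2 and 3. Each of the 10 listed choroid plexus genes was lower in the transgenic group (edgeR, adjusted p under 0.05), and together they summed to 3728 to 5868 CPM in the wild-type hippocampi, against 531 to 841 CPM in the transgenic ones. Kcne2, a potassium channel subunit, had a log2 fold change of -3.36, the potassium channel gene Kcnj13 -2.57 and Enpp2, which makes lysophosphatidic acid, -2.24 (adjusted p = 0.000231 each, edgeR). The part of this tissue in the results below was not tested.

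None of the 10 genes passed an adjusted p of 0.05 in edgeR's quasi-likelihood test over all 19087 genes tested, of which 7.10% did. At an unadjusted p under 0.05, edgeR gave 4 of the 10, Dclk1 and Dcx lower and Dclk3 and Sox11 higher in the transgenic hippocampi, beside 27.8% of all genes. DESeq2's Wald test gave 1 of the 10 at an adjusted p under 0.05 (Dclk1), beside 11.7% of all genes, and limma-voom gave 0, beside 6.61%. The CPM of the 2 genotypes did not overlap for 3 of the 10 genes (Dclk1, Dclk2 and Dclk3), beside 34.9% of all genes. The median log2 fold change of the 10 genes was -0.04, with 5 positive and 5 negative values, and that of all genes tested was -0.01.

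**Figure D1:**
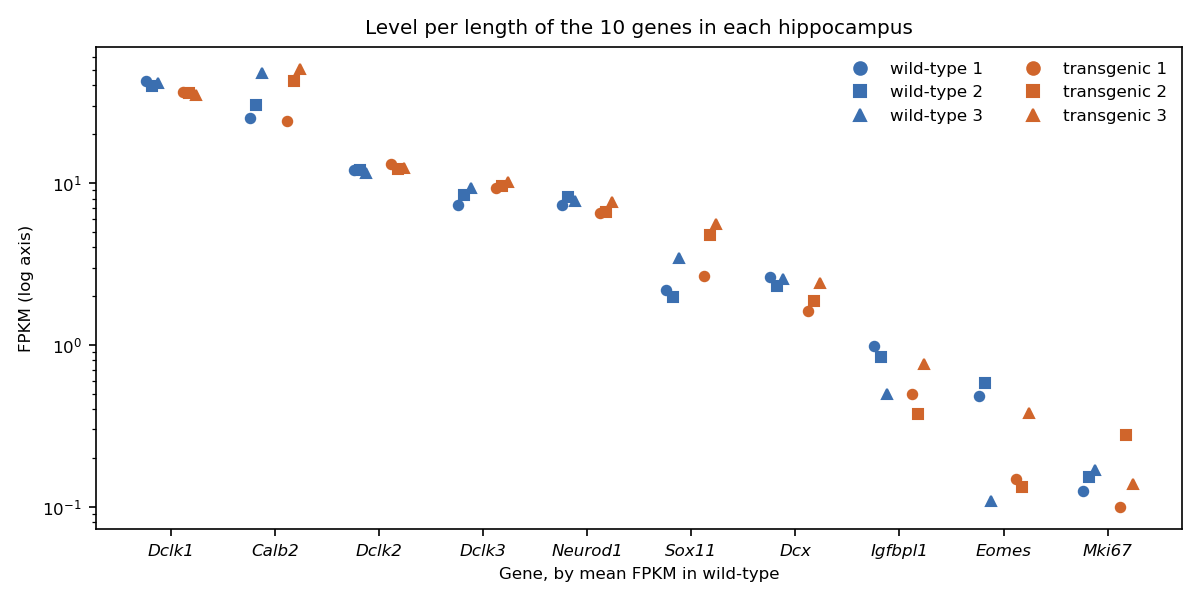
Level per length (FPKM, logarithmic axis) of the 10 genes, ordered by the wild-type mean, with 1 point for each hippocampus (blue, wild-type; orange, transgenic; the symbol gives the replicate). The means in wild-type run from 41.1 FPKM for Dclk1 to 0.149 FPKM for Mki67.

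Levels were compared between genes per length, as fragments relative to exon length and library total (FPKM). In wild-type hippocampi Dclk1 had the highest mean, 41.1 FPKM ± 1.32 (SD, n = 3), followed by Calb2 with 34.4 FPKM ± 11.9 (SD, n = 3). Dclk2 followed with 11.9 FPKM ± 0.263, Dclk3 with 8.37 FPKM ± 0.988 and Neurod1 with 7.73 FPKM ± 0.396 (SD, n = 3 each). Sox11 with 2.54 FPKM ± 0.790 and Dcx with 2.49 FPKM ± 0.166 came next (SD, n = 3 each). The genes of progenitors and of division were lowest, with 0.774 FPKM ± 0.250 for Igfbpl1, 0.389 FPKM ± 0.247 for Eomes and 0.149 FPKM ± 0.0222 for Mki67 (SD, n = 3 each). The wild-type values of neighbours in this order overlapped for Dclk1 and Calb2, Dclk3 and Neurod1, Sox11 and Dcx, Igfbpl1 and Eomes, and Eomes and Mki67. Within single mice Dclk3 was above Neurod1 and Igfbpl1 above Eomes in 3 of 3 wild-type and 3 of 3 transgenic mice. In the other 3 overlapping pairs the order differed between wild-type mice, with Dclk1 above Calb2 in 2 of 3, Sox11 above Dcx in 1 of 3 and Eomes above Mki67 in 2 of 3. In transgenic hippocampi Calb2 (39.0 FPKM ± 13.5) and Dclk1 (35.9 FPKM ± 0.741) stood in the reverse order of means, and Sox11 (4.32 FPKM ± 1.496) was above Dcx (1.96 FPKM ± 0.399) in all 3 mice (SD, n = 3 each).

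Dclk1 lies on chr3:55242364-55539068, plus strand (GRCm38, as for the other positions), and its deposited count sums the exons of 15 annotated transcripts. RefSeq places starts of transcripts at 2 sites of the gene, and forms of DCLK1 that lack the doublecortin domains are known to start inside it. A count per gene does not separate them. The 250 bases before each start are shown because the gene's value adds both, at chr3:55242114-55242363 and chr3:55461478-55461727 (plus strand, GRCm38.p6, RefSeq starts).
Dclk1 before start 1: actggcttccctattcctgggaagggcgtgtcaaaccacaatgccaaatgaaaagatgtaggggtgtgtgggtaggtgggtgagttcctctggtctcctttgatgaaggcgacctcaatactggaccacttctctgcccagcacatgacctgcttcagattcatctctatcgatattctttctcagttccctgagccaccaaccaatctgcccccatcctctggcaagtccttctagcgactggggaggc
Dclk1 before start 2: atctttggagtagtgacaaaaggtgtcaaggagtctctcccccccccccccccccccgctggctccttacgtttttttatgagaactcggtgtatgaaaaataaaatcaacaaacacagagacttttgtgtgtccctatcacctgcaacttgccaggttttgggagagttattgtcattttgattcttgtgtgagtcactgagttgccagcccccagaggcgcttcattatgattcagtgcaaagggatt

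Dclk1 counted 650.2, 607 and 627 CPM in the wild-type and 563, 550.4 and 536 CPM in the transgenic hippocampi. Every transgenic hippocampus was below every wild-type one, and the spread within a genotype was small (coefficient of variation 3.43% and 2.48%). The log2 fold change of transgenic over wild-type was -0.19 (SE 0.049, 95% interval -0.31 to -0.08), a level 0.876 times that of wild-type, with an unadjusted p of 0.00509 and an adjusted p of 0.0581 in edgeR. With library totals in place of TMM the adjusted p was 0.0496 in edgeR, and DESeq2's Wald test gave 0.00953. Leaving out 1 mouse at a time kept the log2 fold change between -0.21 and -0.15. When the trend of counts with gene length was removed from each library, the log2 fold change of Dclk1, whose exons sum to 15296 bp, was -0.04 (edgeR adjusted p = 0.694), and without the trend with GC content it was -0.12 (edgeR adjusted p = 0.275).

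Dclk2, on chr3:86786151-86920852, minus strand, counted 127, 127 and 122 CPM in the wild-type and 139, 129 and 129 CPM in the transgenic hippocampi. The groups did not overlap, and the transgenic values were the higher ones by a small amount. The difference on the log2 scale was 0.08 (SE 0.047, 95% interval -0.03 to 0.19, adjusted p = 0.317, edgeR). With gene length offsets it was 0.19 (edgeR adjusted p = 0.0834) and with GC offsets 0.05 (edgeR adjusted p = 0.637), and it was 0.04 without transgenic 1 and 0.12 without transgenic 2.

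Dclk3, on chr9:111439081-111489118, plus strand, has 1 annotated transcript and counted 22.1, 25.4 and 27.9 CPM in the wild-type and 28.2, 28.7 and 30.6 CPM in the transgenic hippocampi. The lowest transgenic value was just above the highest wild-type one in CPM, but not in FPKM, which take the library total without TMM (9.30 in transgenic 1 and 9.31 in wild-type 3). For Dclk3 the log2 fold change was 0.22 (SE 0.088, 95% interval 0.01 to 0.42), with an adjusted p of 0.162 in edgeR, and with GC and gene length offsets it was 0.13 (edgeR adjusted p = 0.413).

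Dcx, the gene of doublecortin, lies on chrX:143855842-143933311, minus strand, and counted 33.4, 29.2 and 31.9 CPM in the wild-type and 20.7, 23.4 and 30.3 CPM in the transgenic hippocampi. Transgenic 1 and 2 were below all wild-type mice, whereas transgenic 3 lay within the wild-type range, so the groups overlapped. The coefficient of variation was 6.80% in wild-type and 20% in the transgenic hippocampi. The log2 fold change was -0.35 (SE 0.13, 95% interval -0.66 to -0.04, adjusted p = 0.143, edgeR). It was -0.50 without transgenic 3 and -0.23 without transgenic 1, and -0.12 with offsets for GC content and gene length together (edgeR adjusted p = 0.582).

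**Figure D2:**
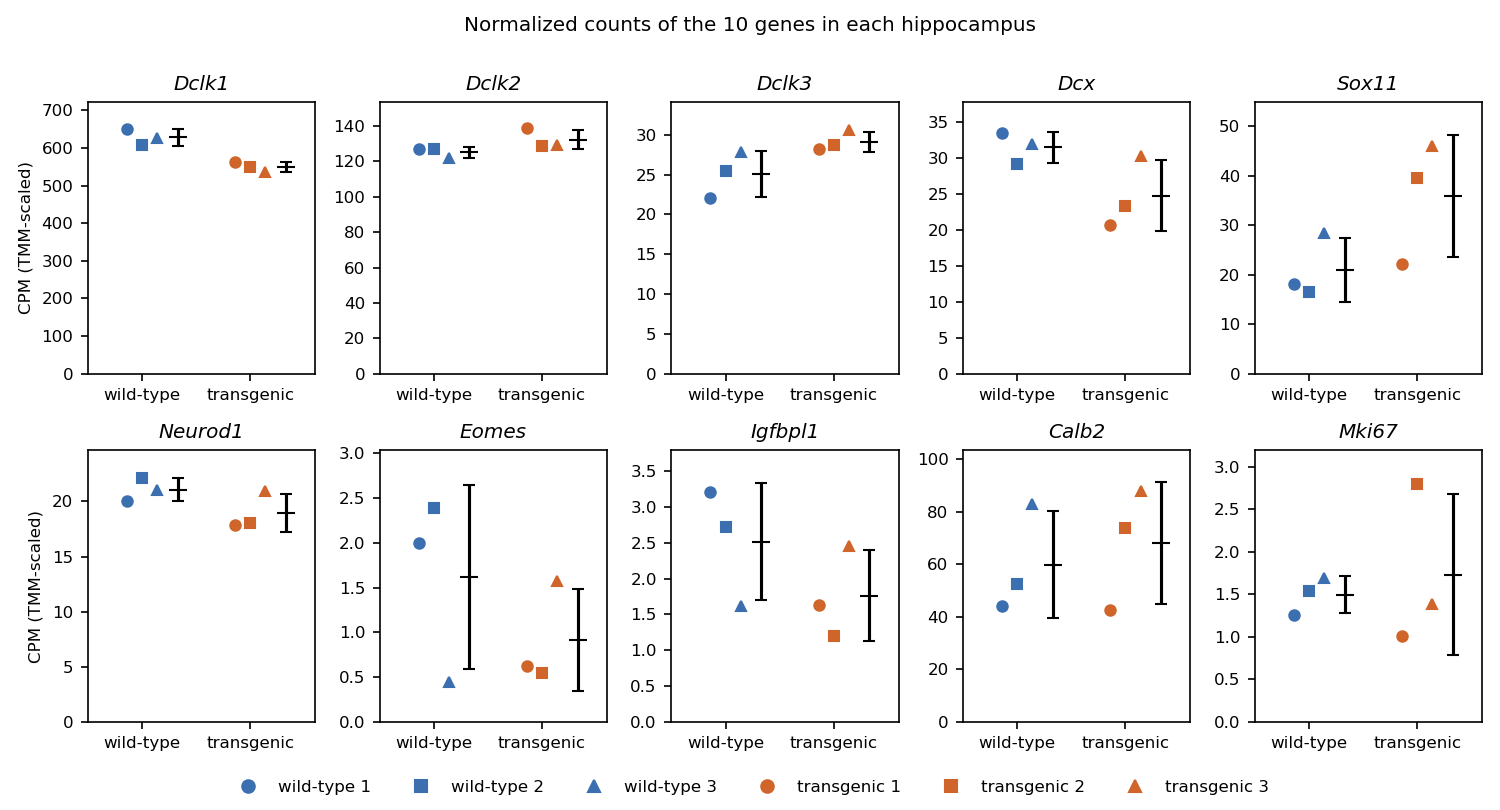
CPM after TMM scaling of each of the 10 genes in the 3 wild-type (blue) and 3 transgenic (orange) hippocampi, on linear axes from 0, with the mean and SD as black bars. The groups do not overlap for Dclk1, Dclk2 and Dclk3 and overlap for the other genes.

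The share of each gene in the summed FPKM of the family does not depend on the library total. Dclk1 made up 65.9%, 63.5% and 63.7% of this sum in wild-type and 60.4%, 60.4% and 58.5% in the transgenic hippocampi. Dclk2 made up 18.6% ± 0.672 and 20.8% ± 0.619, and Dclk3 made up 13.1% ± 1.55 and 16.1% ± 0.814 (SD, n = 3 wild-type and 3 transgenic). Dcx held 3.90% ± 0.202 in wild-type and 3.26% ± 0.675 in the transgenic hippocampi (SD, n = 3 each).

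The log2 ratio of Dclk1 to Dclk2 was 1.82, 1.72 and 1.83 in wild-type and 1.49, 1.56 and 1.51 in the transgenic hippocampi. All transgenic ratios were lower, by 0.27 on average, with an exact two-sided permutation p of 0.1, which is the smallest that 3 mice against 3 can give, and 0.167 after Benjamini-Hochberg adjustment over the 5 ratios compared. The difference was -0.16 with GC offsets and -0.14 with GC and gene length offsets, alternatives added after the data were seen. The ratio of Dclk1 to Dcx overlapped between the genotypes, with a log2 mean of 4.04 ± 0.052 in wild-type and 4.22 ± 0.317 in the transgenic hippocampi (SD, n = 3 each; exact permutation p = 0.4, adjusted 0.4), and the difference of 0.17 ran from 0.03 without transgenic 1 to 0.34 without transgenic 3 and was 0.07 with GC offsets.

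Mki67, on chr7:135689784-135716361, minus strand, is made by dividing cells of any type, and counted 1.26, 1.54 and 1.69 CPM in the wild-type and 1.01, 2.80 and 1.39 CPM in the transgenic hippocampi. Transgenic 2 was the highest of all mice and transgenic 1 the lowest. Between genotypes the log2 fold change was 0.21 (SE 0.36, 95% interval -0.64 to 1.05, adjusted p = 0.753, edgeR), and leaving out 1 mouse moved it between -0.30, without transgenic 2, and 0.49, without transgenic 1. The counts were 47 to 107 in a library.

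Eomes, also called Tbr2, is a transcription factor of intermediate progenitors and also of Cajal-Retzius cells. It lies on chr9:118478212-118486132, plus strand, and had 105, 101 and 17 counts in wild-type and 29, 21 and 59 counts in transgenic libraries. Wild-type 1, wild-type 2 and transgenic 3 were high and the other 3 mice low. On average it counted 1.62 CPM ± 1.03 in the wild-type and 0.915 CPM ± 0.572 in the transgenic hippocampi (SD, n = 3 each). The log2 fold change of -0.85 had the widest 95% interval of the 10 genes, -2.27 to 0.57 (SE 0.61, adjusted p = 0.406, edgeR), and ran from -1.45 to -0.46 when 1 mouse was left out.

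Igfbpl1, found in progenitors and young neurons, lies on chr4:45809468-45826923, minus strand, and counted 3.21, 2.72 and 1.61 CPM in the wild-type and 1.63, 1.205 and 2.46 CPM in the transgenic hippocampi. The same 3 mice as for Eomes were highest. For Igfbpl1 the log2 fold change was -0.52 (SE 0.32, 95% interval -1.28 to 0.23, adjusted p = 0.333, edgeR), and it was -0.29 without wild-type 1 and -0.80 without transgenic 3.

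Sox11, on chr12:27334264-27342574, minus strand, is a transcription factor of immature neurons and has 1 annotated transcript. It counted 18.2, 16.4 and 28.5 CPM in the wild-type and 22.2, 39.6 and 46.0 CPM in the transgenic hippocampi. Transgenic 2 and 3 were above all wild-type mice, while transgenic 1 lay below wild-type 3. The log2 fold change was 0.77 (SE 0.29, 95% interval 0.09 to 1.46, adjusted p = 0.138, edgeR). Without transgenic 1 it was 1.03 with an edgeR adjusted p of 0.0423, without wild-type 3 it was 1.05 (edgeR adjusted p = 0.0780), and without transgenic 3 it was 0.57 (edgeR adjusted p = 0.304). With no filter on low counts the edgeR adjusted p was 0.0433 at a log2 fold change of 0.78.

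RefSeq windows of the 250 bases before a start were at hand for 7 of the 10 genes, 9 windows in all, of which 6 held no annotated exon of the same strand. They were searched on both strands for the SOX sequences AACAAT and ACAAAG and the E-box sequences CAGATG and CAGCTG, letters that SOX factors and the basic helix-loop-helix factors of neurogenesis bind. Over all 32851 windows of this length, AACAAT occurred in 9.42%, ACAAAG in 16.5%, CAGATG in 14.4% and CAGCTG in 13.0%. Of the 6 windows without exons, that of Dclk2 held ACAAAG and that of Sox11 held CAGCTG. The Sox11 window, chr12:27342719-27342968 (minus strand, GRCm38.p6), is shown as the window of these 6 that held CAGCTG, in capitals. Other E-box sequences were not searched for and are not marked in any window.
Sox11 before its start: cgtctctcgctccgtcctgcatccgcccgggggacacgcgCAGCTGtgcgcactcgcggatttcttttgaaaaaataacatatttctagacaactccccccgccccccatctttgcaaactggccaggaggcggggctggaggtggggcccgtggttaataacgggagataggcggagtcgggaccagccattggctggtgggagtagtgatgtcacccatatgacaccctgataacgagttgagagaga

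Neurod1, a basic helix-loop-helix factor needed for the survival of newborn granule cells, lies on chr2:79452521-79456751, minus strand, and its exons overlap those of Cerkl on the same strand. It counted 20.1, 22.1 and 21.01 CPM in the wild-type and 17.9, 18.02 and 20.9 CPM in the transgenic hippocampi. Transgenic 3 alone lay within the wild-type range. For Neurod1 the log2 fold change was -0.15 (SE 0.080, 95% interval -0.34 to 0.03, adjusted p = 0.253, edgeR). With GC offsets it was -0.04 (edgeR adjusted p = 0.798), and without transgenic 2 it was -0.10.

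Calb2, the gene of calretinin, is on briefly in young granule cells and also made by interneurons and mossy cells. It lies on chr8:110137502-110168210, minus strand, and counted 44.2, 52.4 and 83.0 CPM in the wild-type and 42.5, 73.6 and 88.0 CPM in the transgenic hippocampi. Wild-type 3, transgenic 2 and transgenic 3 were high and the other 3 low, and both genotypes spanned nearly the same range. Transgenic over wild-type, the log2 fold change was 0.18 (SE 0.30, 95% interval -0.52 to 0.89, adjusted p = 0.733, edgeR), and without transgenic 3 it was -0.03.

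**Figure D3:**
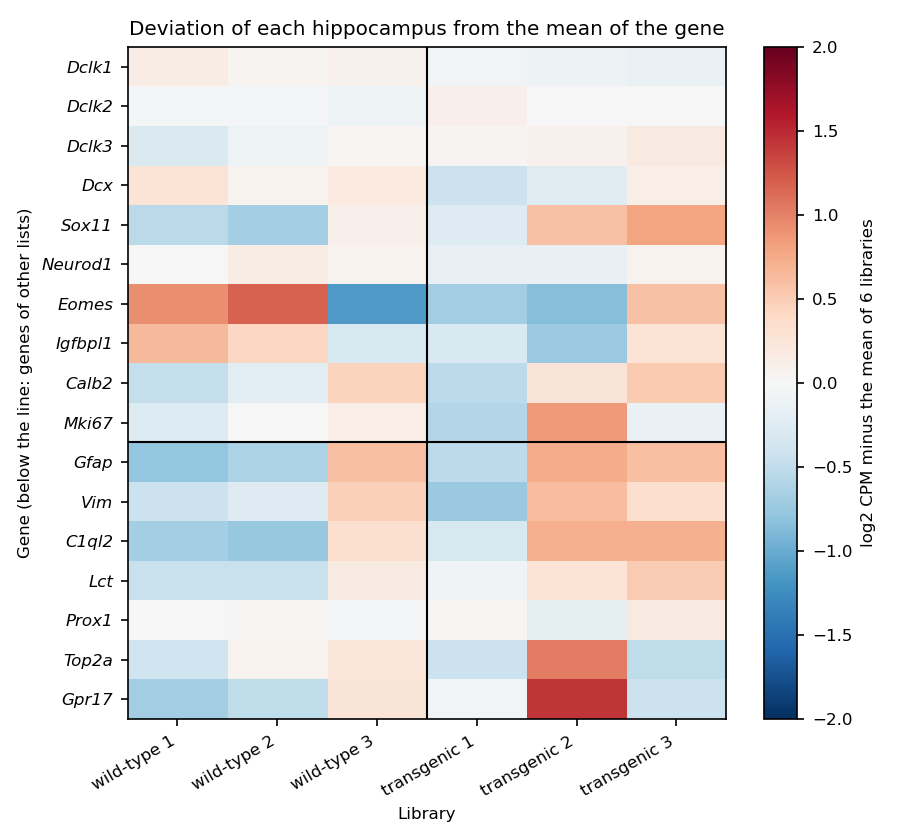
Difference of each hippocampus from the mean of the gene (log2 CPM minus the mean over 6 libraries) for the 10 genes, above the line, and 7 genes of the other lists, below it, as red (higher) and blue (lower). Sox11 and Calb2 are high in wild-type 3, transgenic 2 and transgenic 3, as are Gfap, Vim, C1ql2 and Lct. Prox1, and Fabp7 and Dsp, which are not drawn, belong to the same lists and do not follow this. Eomes and Igfbpl1 are high in wild-type 1, wild-type 2 and transgenic 3.

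Mice of 1 genotype thus differed among themselves, and the genes did so in different mice. Beside Sox11 and Calb2, Gfap, of astrocytes and adult stem cells, counted 323, 355 and 835 CPM in the wild-type and 385, 921 and 839 CPM in the transgenic hippocampi. C1ql2, of mature granule cells, counted 26.2, 24.7 and 52.2 CPM in the wild-type and 33.8, 69.6 and 68.7 CPM in the transgenic hippocampi. Gfap and C1ql2 were picked with their values known, and both were high in wild-type 3, transgenic 2 and transgenic 3. Vim and Lct of their lists shared this, but other genes of these lists did not. Fabp7, of the stem cell list, counted 32.3, 23.0 and 22.3 CPM in the wild-type and 32.6, 31.1 and 23.9 CPM in the transgenic hippocampi. Dsp, of the mature granule cell list, counted 59.2, 64.0 and 45.4 CPM and 72.6, 43.5 and 52.9 CPM. The part of Gfap and C1ql2 in the values of Sox11 and Calb2 was not tested.

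Dcx and Sox11, which both mark immature neurons, had log2 fold changes of opposite sign. The log2 ratio of Dcx to Sox11 was 0.27, 0.22 and -0.44 in wild-type and -0.71, -1.37 and -1.21 in the transgenic hippocampi. All transgenic ratios were below all wild-type ratios, by 1.11 on average, with the smallest p possible, 0.1, in an exact permutation test and 0.167 after adjustment. Set against Prox1, a factor of all granule cells at 95.4 CPM ± 2.21 in wild-type and 96.8 CPM ± 12.3 in the transgenic hippocampi (SD, n = 3 each), the log2 ratio of Dcx was -2.11, -2.33 and -2.14 in wild-type and -2.82, -2.44 and -2.44 in the transgenic hippocampi. These groups did not overlap either, with a mean difference of -0.37 (exact permutation p = 0.1, adjusted 0.167), or -0.25 without transgenic 1. The log2 ratio of Calb2 to Dcx overlapped between genotypes, with means of 3.73 ± 0.490 and 4.27 ± 0.328 (SD, n = 3 each; exact permutation p = 0.2, adjusted 0.25), and the difference of 0.53 was 0.30 without wild-type 1, 0.79 without wild-type 3 and 0.22 with GC and gene length offsets.

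**Figure D4:**
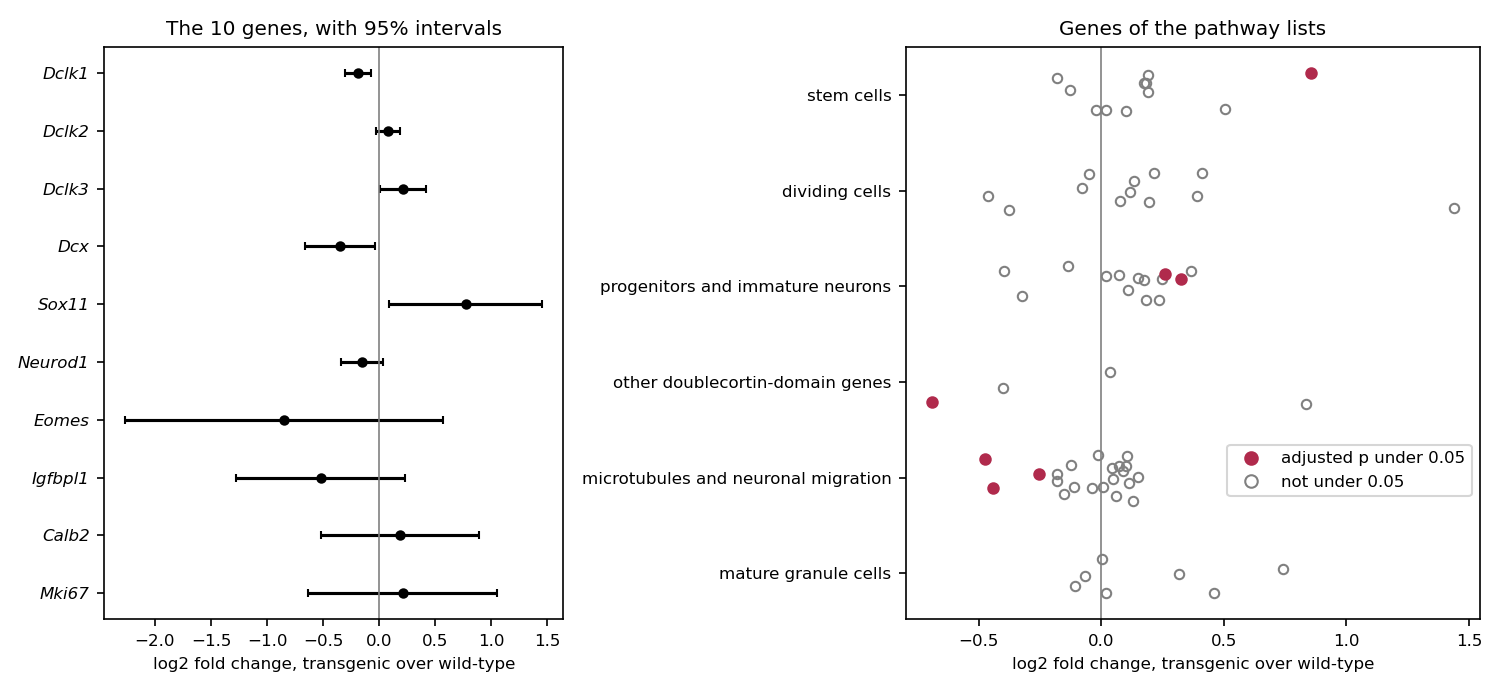
Left, log2 fold change of transgenic over wild-type for the 10 genes, with 95% intervals from edgeR, which leave out 0 for Dclk1, Dclk3, Dcx and Sox11 before adjustment. Right, the log2 fold changes of the genes of 6 pathway lists, with filled points for the 7 genes with an adjusted p under 0.05.

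Other genes of these steps were taken from 6 lists. Of 69 listed genes tested, 7 had an adjusted p under 0.05 in edgeR, 3 higher and 4 lower in the transgenic hippocampi, beside 7.10% of all genes. In all genes tested, 3.10% were higher and 4% lower by this rule. The median log2 fold change of the listed genes was 0.07. Without wild-type 1 or wild-type 2 no listed gene was called by edgeR in either direction. Without wild-type 3, transgenic 1, transgenic 2 or transgenic 3 the higher calls numbered 2, 3, 0 and 1 and the lower calls 2, 2, 1 and 0. With GC offsets, edgeR called 0 higher and 0 lower.

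Among 11 stem cell genes, 1 rose, beside 3.10% of all genes, and the median log2 fold change was 0.17. This was Hes5, a transcriptional repressor downstream of Notch, with 6.57, 7.08 and 5.28 CPM in the wild-type and 12.9, 12.2 and 9.15 CPM in the transgenic hippocampi. All transgenic values were above all wild-type values, as for 16.9% of all genes, with a log2 fold change of 0.86 (SE 0.16, adjusted p = 0.0299, edgeR). It kept its call under 13 of 19 alternatives and lost it with GC offsets (0.72, edgeR adjusted p = 0.0563). Of 12 tested genes of dividing cells, 0 were called by edgeR in either direction and 1 had an unadjusted p under 0.05, beside 27.8% of all genes, with a median of 0.12.

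Among 14 further genes of progenitors and immature neurons, 2 rose and 0 fell, beside 3.10% and 4% of all genes. Their median log2 fold change was 0.16. Neurod2, a relative of Neurod1 that mature excitatory neurons also make, counted 142, 142 and 141 CPM in the wild-type and 190.1, 170.1 and 171 CPM in the transgenic hippocampi (log2 fold change 0.32, adjusted p = 0.0239, edgeR). Marcksl1, which acts on the actin of growing processes, counted 64.4, 64.6 and 58.9 CPM in the wild-type and 74.1, 75.0 and 75.8 CPM in the transgenic hippocampi (log2 fold change 0.26, adjusted p = 0.0313, edgeR). Neither gene is restricted to newborn neurons. The groups did not overlap for these 2 genes, which were named for their low adjusted p, nor for 34.9% of all genes. Neurod2 kept its call under 12 of 19 alternatives and Marcksl1 under 9 of 19. With GC and gene length offsets the log2 fold changes were 0.21 for Neurod2 (edgeR adjusted p = 0.0827) and 0.12 for Marcksl1 (edgeR adjusted p = 0.277).

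Of 7 other genes with doublecortin domains, 4 were tested and 1 fell, beside 4% of all genes. Dcdc5, annotated as a transcribed unitary pseudogene, counted 1.81, 2.23 and 2.30 CPM in the wild-type and 1.22, 1.36 and 1.33 CPM in the transgenic hippocampi (log2 fold change -0.69, SE 0.16, adjusted p = 0.0460, edgeR). This call was kept under 4 of 19 alternatives, and it was lost with DESeq2 (adjusted p = 0.0577), with limma-voom (adjusted p = 0.0517) and when any 1 mouse was left out (edgeR adjusted p = 0.0845 to 0.159). Dcdc1 was not found by its symbol, whether the annotated Dcdc5 covers part of it was not examined, and Rp1l1 and Dcdc2c had too few counts to test.

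Among 21 genes of microtubules and neuronal migration, 3 fell and 0 rose, beside 4% and 3.10% of all genes. Their median log2 fold change was 0.01. Usp9x, a deubiquitinating enzyme, counted 176, 169 and 159 CPM in the wild-type and 135, 119 and 117 CPM in the transgenic hippocampi (log2 fold change -0.44, SE 0.067, adjusted p = 0.0190, edgeR). Reln, the secreted protein reelin that guides neurons to their layer, counted 103, 90.9 and 90.3 CPM in the wild-type and 66.2, 78.4 and 60.1 CPM in the transgenic hippocampi (log2 fold change -0.47, SE 0.10, adjusted p = 0.0387, edgeR). Vldlr, a receptor of reelin, counted 118, 122 and 122 CPM in the wild-type and 101, 99.5 and 103 CPM in the transgenic hippocampi (log2 fold change -0.26, SE 0.039, adjusted p = 0.0200, edgeR). The groups did not overlap for these 3 genes, which were named for their low adjusted p, nor for 34.9% of all genes. The other receptor, Lrp8, had a log2 fold change of 0.05 (adjusted p = 0.542, edgeR) and Dab1, their adaptor, -0.12 (adjusted p = 0.375, edgeR). With GC and gene length offsets the log2 fold change was -0.18 for Usp9x (edgeR adjusted p = 0.277), -0.10 for Vldlr (edgeR adjusted p = 0.276) and -0.40 for Reln (edgeR adjusted p = 0.0860). Reln was at -0.30 with gene length offsets alone (edgeR adjusted p = 0.120), where 0 genes of the 6 lists fell.

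None of 7 genes of mature granule cells was called in edgeR, with 1 at an unadjusted p under 0.05, beside 27.8% of all genes, and a median log2 fold change of 0.02. Among markers of other cells, Gad2 of the interneuron list (log2 fold change -0.52, adjusted p = 0.0272, edgeR) and Ndnf of the Cajal-Retzius list (log2 fold change -0.36, adjusted p = 0.0406, edgeR) fell. Of the 9 interneuron genes, 4 had positive and 5 negative log2 fold changes, with a median of -0.01, and 3 had an unadjusted p under 0.05 in edgeR, beside 27.8% of all genes. These 3 make or load the transmitter GABA in all interneurons, Gad2, Gad1 at -0.28 (adjusted p = 0.116, edgeR) and Slc32a1 at -0.27 (adjusted p = 0.177, edgeR). With GC offsets the log2 fold change of Gad2 was -0.41 (edgeR adjusted p = 0.0803), and with GC and gene length offsets that of Ndnf was -0.16 (edgeR adjusted p = 0.270). The summed level of the 4 Cajal-Retzius genes ran from 40.4 to 50.5 CPM in the wild-type and 34.8 to 37.0 CPM in the transgenic hippocampi, most of it from Ndnf. Without Ndnf the other 3 summed to 8.29, 9.33 and 5.86 CPM in the wild-type and 8.01, 6.26 and 5.605 CPM in the transgenic hippocampi, and these groups overlapped. Reln and Eomes are also made by Cajal-Retzius cells and Reln and Calb2 by interneurons, and the part of these cells in their values was not tested. Which cells gave the Ndnf counts was not tested either. All listed genes that were found had counts in at least 1 library.

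The 3 genes whose profile over the 6 libraries lay nearest to that of Dclk1 were Atl1, Gm35040 and Ntrk2, at root mean square distances of 0.012, 0.017 and 0.019 on the log2 scale, where the median over 19086 genes was 0.18. For Dcx they were Gm10118, Gm43032 and Hecw1, at 0.035, 0.036 and 0.049 beside a median of 0.29. With 6 libraries many genes can lie close to any profile, and these distances are given as a description.

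**Figure D5:**
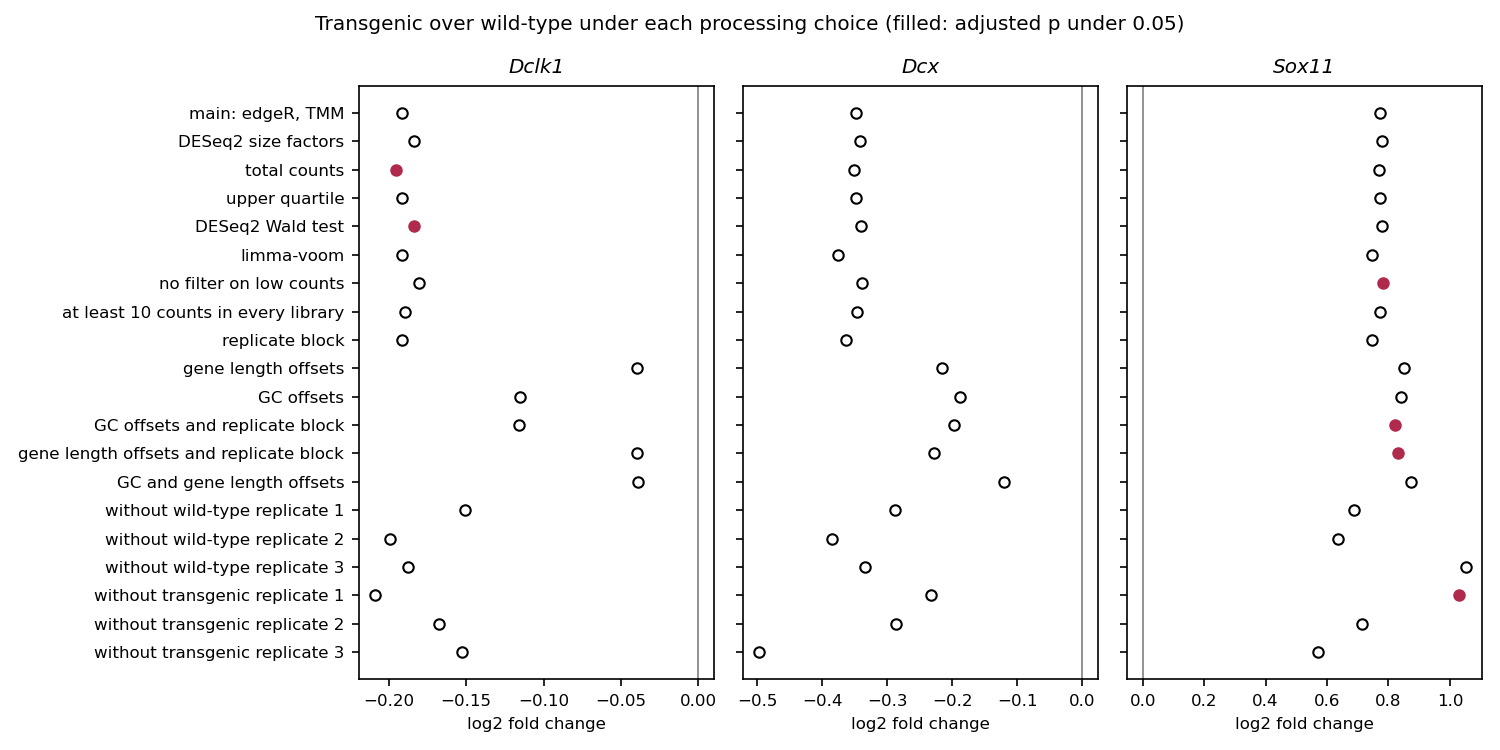
Log2 fold change of transgenic over wild-type for Dclk1, Dcx and Sox11 with edgeR and TMM scaling and under 19 other processing choices, on linear axes, with filled points where the adjusted p was under 0.05. Dclk1 runs from -0.21 to -0.04, Dcx from -0.50 to -0.12 and Sox11 from 0.57 to 1.05, and no value changes sign.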

How the data were processed

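Sequencing of polyA RNA gave 6 libraries, 3 per genotype, 1 per mouse, and samples were grouped by the labels. The authors trimmed reads with Trimmomatic, aligned them to mm10 with STAR and counted them with featureCounts 1.5.0-p1 (Ensembl 95; strand setting 2, mapping quality of at least 3, primary alignments; STAR and Trimmomatic versions are not given in the sources used here). The authors deposited these counts, whole numbers per gene that were not normalized, with each gene's exonic length. Symbols came from GENCODE M21, which names 54809 of 54838 genes. No other count column was present.

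Genes were filtered with filterByExpr (minimum count 10), leaving 19087, scaled by TMM and tested with edgeR 4.0.16 (quasi-likelihood, no covariates, Benjamini-Hochberg adjustment over all genes, threshold 0.05) in R 4.3.3. Alternatives were DESeq2 1.42.0, limma-voom (limma 3.58.1), other scalings and filters, a replicate block, loess offsets (span 0.5) for GC content and length, and leaving out each mouse. The study's own test, NOISeq, was not run here. Ratios used exact permutation tests (scipy 1.17.1), and FPKM used the deposited lengths. The fits were also run on simulated data with 200 changed genes, and the outcome is not reported here.

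All 10 genes are reported, together with Orai1 and, of each list, up to 3 genes per direction with an adjusted p under 0.05. Gfap, Vim, C1ql2, Lct, Fabp7, Dsp, Top2a, Mcm2, Pcna, Rrm2, Ccnd2, Gpr17, Neu4, Lrp8, Dab1, Gad1 and Slc32a1 were named after their values were seen. The genes and lists were chosen with earlier results of these data known. P-values measure the spread between these mice.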

Additional observations from a re-analysis of the deposited data

How the results depend on the processing

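Under 19 alternatives for each of the 10 genes, 182 of 190 values kept their direction and their side of the threshold and 6 came newly past it, for Dclk1 (total counts, adjusted p = 0.0496; DESeq2, 0.00953) and Sox11 (edgeR with no filter, 0.0433; GC offsets with block, 0.0458; length offsets with block, 0.0351; without transgenic replicate 1, 0.0423). The other 2 changed sign, Mki67 at -0.30 without transgenic replicate 2 and Calb2 at -0.028 without transgenic replicate 3, where leaving out 1 mouse at a time gave -0.30 to 0.49 and -0.03 to 0.50. Calls among the 10 genes therefore numbered 1 lower with total counts or DESeq2, and 1 higher with no filter, GC offsets with block or length offsets with block, and leaving out 1 mouse gave 0 to 1 higher. The 9 other genes called in the lists lost their call in 81 of 171 values, whereas Orai1 and the 3 named choroid plexus genes lost it in 0 of 76, and 0 of these values changed sign. The whole table gave 591 higher and 764 lower genes in edgeR, and 1055 and 1175 with DESeq2. With length offsets 395 were higher and 376 lower, so that higher genes were the more numerous. GC offsets gave 165 higher and 247 lower, GC and length offsets together 176 and 240, and leaving out 1 mouse 11 to 466 and 66 to 683. For genes of the pathway lists, length offsets gave 0 lower, GC offsets, alone or with length offsets, 0 higher and 0 lower, and leaving out 1 mouse 0 to 3 higher and 0 to 2 lower. The difference in the ratio of Dclk1 to Dclk2 was -0.16 with GC offsets and -0.14 with GC and length offsets, chosen after seeing the data. The causes of these differences were not tested. A replicate block gave 263 higher and 475 lower genes, with GC offsets 167 and 318 and with length offsets 241 and 355, and 1 lower pathway gene with either offset. Deviations of same-numbered mice correlated at 0.40, -0.36 and 0.39, with a mean of 0.14, beside -0.09 for mice of different numbers. With 3 mice per genotype these values cannot decide whether the numbers pair the mice, and the labels state no pairing. With the block alone none of the 10 genes was called by edgeR (Dclk1 adjusted p = 0.0863). Depth was lowest for Eomes, at 17 to 105 counts in a library, and how much of its spread is counting error was not tested.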

Other observations

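Transgenic 2 had the highest level of several genes of division and of newly formed oligodendrocytes. Top2a, needed to separate chromosomes, counted 1.34, 1.87 and 2.11 CPM in wild-type 1, 2 and 3 and 1.31, 3.64 and 1.23 CPM in transgenic 1, 2 and 3. Mki67 was highest in the same mouse. Mcm2, Pcna, Rrm2 and Ccnd2 of the division list were not highest there, and Mcm2 was lowest there, at 4.19 CPM. Gpr17, of cells that turn into oligodendrocytes, counted 37.6, 42.9 and 72.5 CPM in wild-type and 58.4, 164 and 45.0 CPM in transgenic hippocampi, and Neu4 counted 10.7, 11.9 and 15.9 CPM and 11.6, 25.1 and 11.9 CPM. Transgenic 2 was not highest for at least 2 of the 8 listed oligodendrocyte precursor genes. These were lower in every transgenic than in every wild-type hippocampus, beside 17.9% of all genes. Top2a, Gpr17 and Neu4 were picked after their values were seen, and neither they nor Mki67 were called between the genotypes in edgeR.

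The 5 genes of olfactory neuroblasts, which would mark tissue from outside the hippocampus or interneurons, all had negative log2 fold changes, with a median of -0.34, and 0 were called by edgeR, 1 at an unadjusted p under 0.05, beside 27.8% of all genes. The lists of pyramidal cells, microglia, oligodendrocyte precursors and thalamus and habenula had 0 called genes in edgeR, with 0, 2, 3 and 1 genes of 6, 5, 8 and 6 at an unadjusted p under 0.05, beside 27.8% of all genes, and median log2 fold changes of -0.03, 0.29, 0.12 and -0.18.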
